A study of Mus musculus with 12 samples.

Results

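Transcripts of collagens and other extracellular matrix genes were read on arrays from 12 BALB/c mouse spleens. The set held 40 genes taken by name, and every probe set to which the array annotation gives 1 of these symbols and no other was used. The annotation gave 85 probe sets for 38 of the 40 genes, among 18193 named genes in all. Fbn1 and Efemp2, which encode an elastic fibre microfibril protein and an elastic fibre assembly protein, had no probe set in the table used and were not analysed here. Each gene was counted by its probe set with the highest mean over the 12 arrays. A probe set was tested where its scaled signal reached 100 in at least 3 arrays, which 36 of the 38 genes did. Col15a1, a basement membrane zone collagen, lay between 15.6 and 132 and reached 100 in 2 arrays, both of wt at 4 months. Tnc, the matricellular protein tenascin-C, stayed between 20.1 and 88.6 in all 12 arrays.

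The 4 groups were wild-type mice (wt) and mice lacking Il1rn (ko), each aged either 1 month or 4 months, with 3 mice a group and 1 mouse an array. Il1rn encodes the IL-1 receptor antagonist, a secreted protein that keeps IL-1 from its receptor, and BALB/c mice without it develop arthritis spontaneously. The series' title asks which arthritis-related genes belong to a phase of the disease. How Il1rn was disrupted, the sex of the mice and their joint scores are not given in the sources used here. The values are from whole spleen, in which fewer cells of a type and less RNA per cell cannot be told apart.

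The spleen hangs on a mesh of reticular fibres, made and wrapped by fibroblastic reticular cells, inside a capsule with trabeculae of collagen and elastin. Fibrillar collagens give such fibres their strength, while type IV collagen, laminins and nidogen form the sheets under vessel walls and around the reticular fibres. Small leucine-rich proteoglycans coat the fibrils, lysyl oxidases cross-link collagen and elastin, and matrix metalloproteinases cut the matrix under the control of their tissue inhibitors. IL-1 is known to act on fibroblasts and to change their output of matrix proteins and proteases.

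To show the control regions of the members called lower in ko over both ages, the 250 bases before the start of transcription are printed for the 5 of them with an entry in the RefSeq promoter table (assembly GRCm38.p6), 5′ to 3′ on the strand of the gene. Capitals mark the letters of 3 common promoter motifs, searched on both strands: the TATA box TATAAA (reverse complement TTTATA), the CCAAT box (ATTGG on the other strand) and the GC box GGGCGG, for which the other strand reads CCGCCC. Col5a2, Dcn and Lox had no entry. Postn had 2 listed starts, and the one with a match is shown. The windows lie at chr1:45311288-45311537 (plus strand) for Col3a1, chr3:54360857-54361106 (plus) for Postn, chr6:4505368-4505617 (plus) for Col1a2, chr11:118355412-118355661 (minus) for Timp2 and chr17:14694263-14694512 (minus) for Thbs2.
Col3a1: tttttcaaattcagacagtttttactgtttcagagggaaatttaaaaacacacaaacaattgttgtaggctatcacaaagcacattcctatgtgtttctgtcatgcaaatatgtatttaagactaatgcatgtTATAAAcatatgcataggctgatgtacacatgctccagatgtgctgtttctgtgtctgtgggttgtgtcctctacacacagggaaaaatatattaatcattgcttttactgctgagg
Postn: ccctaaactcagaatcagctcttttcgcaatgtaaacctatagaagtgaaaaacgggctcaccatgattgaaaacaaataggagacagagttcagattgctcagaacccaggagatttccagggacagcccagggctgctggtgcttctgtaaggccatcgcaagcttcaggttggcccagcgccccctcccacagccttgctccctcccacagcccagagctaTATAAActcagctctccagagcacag
Col1a2: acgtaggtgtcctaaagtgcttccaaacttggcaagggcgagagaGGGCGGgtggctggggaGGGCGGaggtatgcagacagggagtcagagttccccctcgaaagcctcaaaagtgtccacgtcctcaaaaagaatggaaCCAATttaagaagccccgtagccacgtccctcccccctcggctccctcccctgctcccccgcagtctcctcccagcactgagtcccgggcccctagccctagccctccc
Timp2: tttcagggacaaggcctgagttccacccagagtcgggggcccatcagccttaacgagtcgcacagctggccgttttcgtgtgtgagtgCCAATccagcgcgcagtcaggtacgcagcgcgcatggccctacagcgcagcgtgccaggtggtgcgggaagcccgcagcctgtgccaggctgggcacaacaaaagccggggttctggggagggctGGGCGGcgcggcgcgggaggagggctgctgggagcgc
Thbs2: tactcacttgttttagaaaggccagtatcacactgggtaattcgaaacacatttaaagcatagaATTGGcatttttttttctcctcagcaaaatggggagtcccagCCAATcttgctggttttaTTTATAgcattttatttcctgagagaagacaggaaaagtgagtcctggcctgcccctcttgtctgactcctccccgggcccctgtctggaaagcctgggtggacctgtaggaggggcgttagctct

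Col3a1 had 1 match, a TATAAA 117 bases before the start. In Postn the match was a TATAAA 26 bases before the start. Col1a2 held a CCAAT at 109 bases and a GGGCGG at 205 and at 188 bases. Timp2 held a CCAAT at 162 and a GGGCGG at 37 bases. Thbs2 held a CCAAT at 144 bases and, on the other strand, an ATTGG at 186 and a TTTATA at 126 bases. The printed matches do not overlap one another. Of the 26 members with a promoter entry, 4 held TATAAA (Col3a1, Postn, Thbs2 and Tnc), 9 held CCAAT and 16 held GGGCGG. Over the promoters of all 27025 genes of the table, windows of the same length held them in 14.3%, 37.5% and 35.4%. A match is a description of letters in this window and not a bound site. In gene order, 4 pairs of members lie side by side with no protein-coding gene between them: Col3a1 and Col5a2, Col6a2 and Col6a1, Dcn and Lum, and Col4a1 and Col4a2.

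Signals are intensities on a linear scale, brought to the same trimmed mean of 500 on every array, and the number of arrays limits their precision. Single-array values are listed from replicate 1 to 3. Log2 differences were taken after adding 32, which makes a change at a low signal smaller, and changes are given on that scale. Folds were computed from these log2 differences and are smaller in the same way. A gene is said to be called where its Benjamini-Hochberg adjusted p from limma, over all 27041 probe sets tested, was under 0.05. Between 52.1% and 59.2% of the probe sets of an array reached 100, and Pearson's r within a group was 0.944 to 0.983. Of the 3 Il1rn probe sets, 1 was called lower in ko at each age and the other two at neither. The called one gave 163, 143 and 120 in wt and 23.6, 40.6 and 5.64 in ko at 1 month, and 188, 161 and 278 in wt and 40.8, 10.1 and 14.8 in ko at 4 months, so that every ko array lay below every wt array. The arrays form a low set and a high set of 6 by their highest deposited signal (33427 to 37921 and 51247 to 68987), and the labels do not say what separates them. The low set holds all ko arrays at 1 month, replicate 3 of wt at each age and replicate 2 of ko at 4 months. All 13 reticular fibroblast markers on the array were expressed, Tlx1, a transcription factor of the splenic mesenchyme, at 258 or more in every array. Exocrine pancreas markers summed to 142794 in wt at 4 months replicate 2 and to at most 698 elsewhere.

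**Figure D1:**
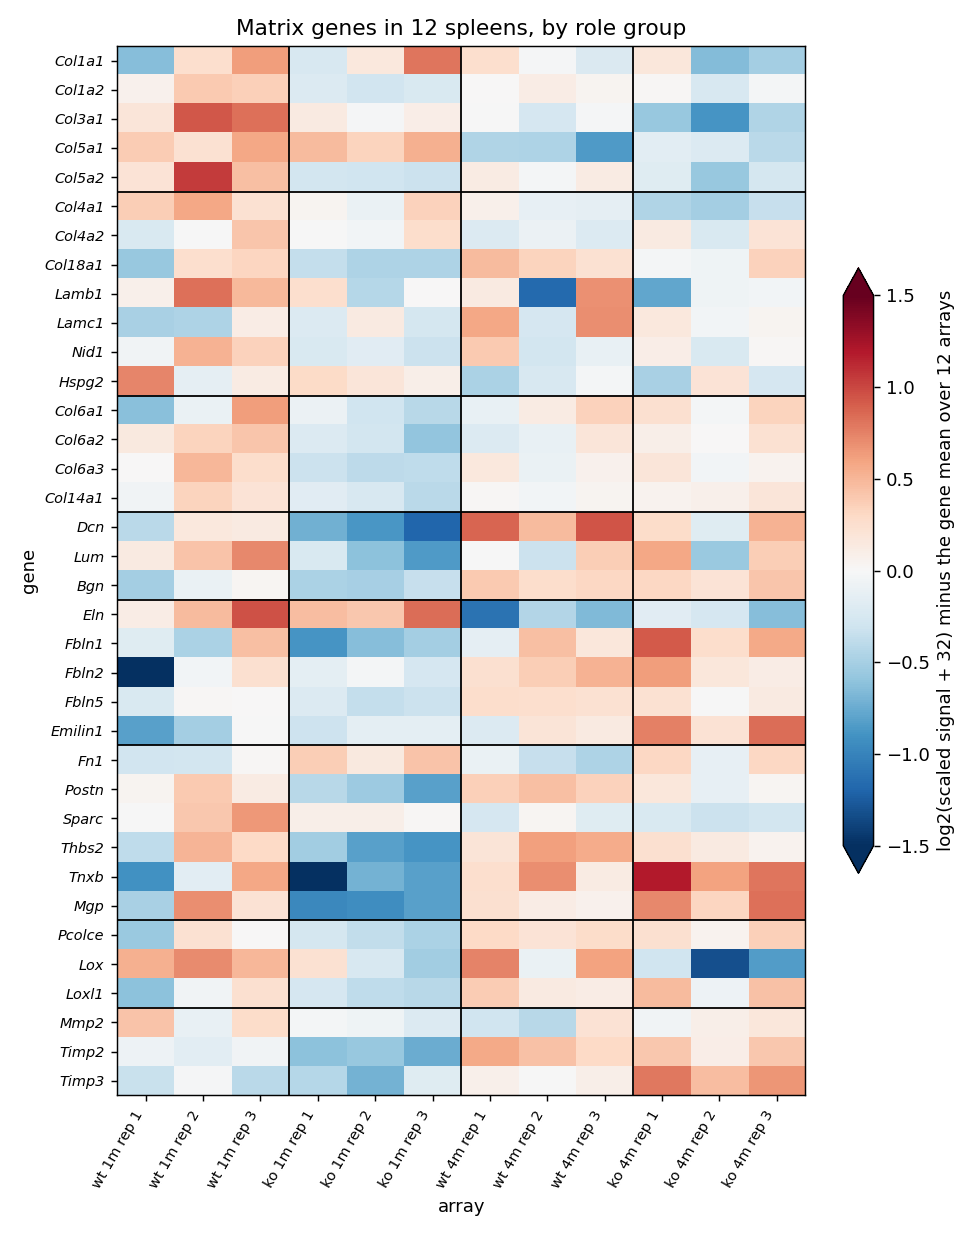
Each of the 36 tested matrix genes (rows, by role group) in each of the 12 arrays (columns), as log2(scaled signal + 32) minus the mean of the gene over the 12 arrays; the colour scale ends at -1.5 and 1.5. The 3 ko columns at 1 month are blue for most genes from the collagen VI group down, and the fibrillar collagens are bluest in ko at 4 months.

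At 1 month 28 of the 36 matrix genes had a log2 difference below 0 in ko against wt spleens, and 2 of them passed the test. Postn, which encodes periostin, a secreted protein that binds collagen and integrins, was 1.72-fold lower in ko, and Col5a2, a chain of the type V collagen that sets fibril diameter, was 1.82-fold lower. Calls lower in ko took 0.252% of the 12326 genes tested, and calls in either direction 0.617%. In 15 of the 36 members every ko array lay below every wt array (Col1a2, Col3a1, Col5a2, Nid1, Col6a2, Col6a3, Col14a1, Dcn, Lum, Fbln1, Postn, Thbs2, Mgp, Lox and Timp2), and in 1 member, Fn1, every ko array lay above. Of all genes, 11.7% lay below and 8.97% above in this way. The median log2 difference of the members was -0.36 and that of all genes -0.02. An unadjusted p under 0.05 was reached by 17 of the 36, and by 16.9% of all genes.

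Both calls depended on single arrays. Postn lost its call without wt at 1 month replicate 2, ko at 1 month replicate 2 or 3, or ko at 4 months replicate 3, with an adjusted p of up to 0.220. Col5a2 kept its call only without wt at 1 month replicate 1 or replicate 3, and its adjusted p reached 0.242 elsewhere. Without wt at 1 month replicate 1 the count rose to 6, with Mgp at -1.36 (SE 0.19, adjusted p = 0.0029 in limma), Thbs2 at -1.14, Dcn at -1.08, Col5a2 at -1.05, Postn at -0.85 and Col3a1 at -0.81. Without wt at 1 month replicate 3 it was 5, namely Postn, Col5a2, Mgp, Col6a3 and Timp2. With the array set as a block, Postn stood at -0.69 (SE 0.17, adjusted p = 0.197 in limma) and Col5a2 at -0.76 (SE 0.21, adjusted p = 0.263 in limma), so that 0 members were called. Within the low set, 1 wt against 3 ko arrays, the members' median was -0.58.

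At 4 months the members lay about level between the genotypes, with a median log2 difference of -0.03 beside 0.02 for all genes. Lox, lysyl oxidase, was the 1 member called, 2.35-fold lower in ko, and 0 were called without ko at 1 month replicate 2, wt at 4 months replicate 1 or 3, or ko at 4 months replicate 2 or 3. Calls lower in ko took 0.479% of all genes, and calls in either direction 2.96%, with 2.48% higher. The groups did not overlap in 10 members: ko was lower in Col3a1, Col5a2, Col4a1, Postn and Lox, and higher in Col5a1, Col14a1, Emilin1, Mgp and Timp3. Of all genes, 10.5% lay lower and 13.3% higher without overlap. An unadjusted p under 0.05 was reached by 10 of the 36, and by 16.8% of all genes. With quantile normalization Timp3 was called higher in ko as well, at 0.62 (SE 0.15, adjusted p = 0.043 in limma).

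With both ages averaged, 8 members were lower in ko (Col1a2, Col3a1, Col5a2, Dcn, Postn, Thbs2, Lox and Timp2) and 1, Fn1, was higher. Of all genes, 2.45% were called lower and 3.89% higher, 6.34% in all. The calls of Col5a2, Dcn, Lox and Postn held when any 1 of the 12 arrays was left out. The count of 9 went to 4 without wt at 1 month replicate 2 or ko at 1 month replicate 3 and to 5 without ko at 1 month replicate 2 or any 1 of the ko arrays at 4 months. With each array centred on its median, the calls of Col1a2, Col3a1, Thbs2 and Timp2 were lost and 1 member was higher and 4 lower. The change of the genotype difference from 1 to 4 months was called in 0 of the 36 members and in 0.0568% of all genes, with an unadjusted limma p under 0.05 in 9 members and in 9.38% of all genes. Without wt at 1 month replicate 1 it was called in 1 member, Mgp (1.85). Its median over the members was 0.32 on the log2 scale, beside 0.04 over all genes. Col14a1 and Mgp had every ko array below wt at 1 month and above wt at 4 months.

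**Figure D2:**
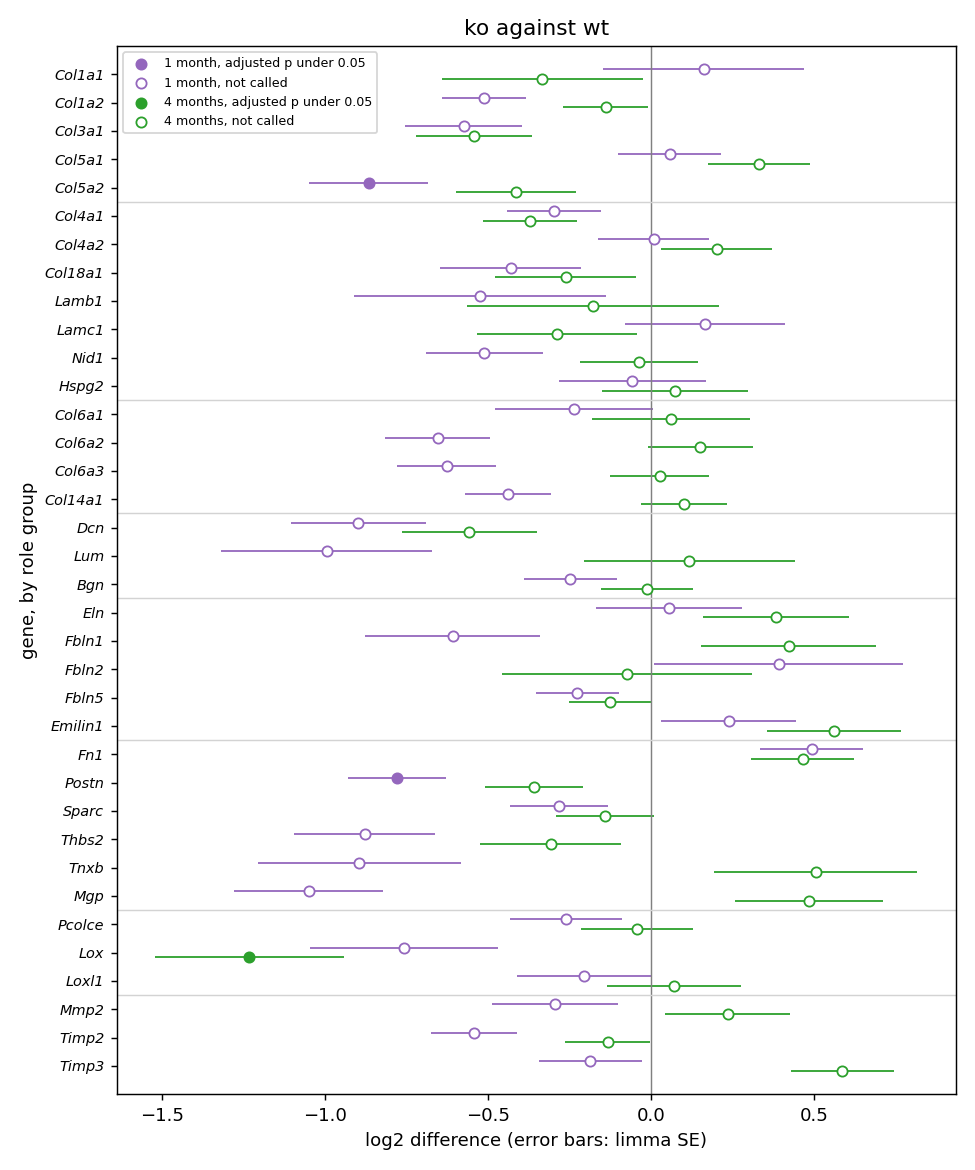
Log2 difference of ko against wt (x axis, points with limma SE) at 1 month and at 4 months for the 36 tested matrix genes (y axis, by role group), with filled points for an adjusted p under 0.05. The filled points are Postn and Col5a2 at 1 month and Lox at 4 months, all to the left of 0.

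From 1 to 4 months, the collagens Col3a1, Col5a1 and Col4a1 and the elastin gene Eln fell in both genotypes, while Dcn, Bgn and Timp2 rose in both. In wt spleens 3 members rose and 5 fell, Sparc being the fifth. Of all genes, 12.6% rose and 11.5% fell in wt, 24.1% in all. In ko spleens 15 members rose and 4 fell, where 15.7% of all genes rose and 10.9% fell, 26.6% in all. The 12 that rose in ko and were not called in wt were Col6a2, Col14a1, Fbln1, Fbln5, Emilin1, Postn, Thbs2, Tnxb, Mgp, Pcolce, Loxl1 and Timp3. None of these 12 was called for the difference between the genotypes itself, so a difference in ageing was not shown for any of them. The wt and ko comparisons use separate arrays and 1 shared estimate of the spread. They also differ in array set. All ko arrays at 1 month were of the low set, but only replicate 2 of ko at 4 months was. In wt only replicate 3 was of the low set at each age. With the array set as a block, Eln, Col6a2, Col14a1, Fbln5, Pcolce and Loxl1 were no longer called in ko.

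The members' median age difference was -0.10 in wt and 0.42 in ko, beside 0.08 and 0.09 for all genes. In ko 19 members lay higher at 4 months without overlap of the groups and 5 lower, where 30.0% and 20.4% of all genes did. In wt the counts were 5 and 5, where 19.3% and 14.8% of all genes did. Of the 19 calls in ko, 12 held whichever array was left out, and of the 8 in wt, 4 did. The ko count was lowest, at 12, without ko at 4 months replicate 1. Centring each array on its median moved the median of all genes in ko from 0.09 to -0.06, and 8 members then rose and 4 fell, Col6a2, Col14a1, Fbln5, Emilin1, Postn, Pcolce and Loxl1 no longer being called. Centring shifts all genes of an array alike, so it could not change the members' median less that of all genes, 0.33 in ko. With quantile normalization that value was 0.32. With quantile normalization 3 rose and 3 fell in wt.

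**Figure D3:**
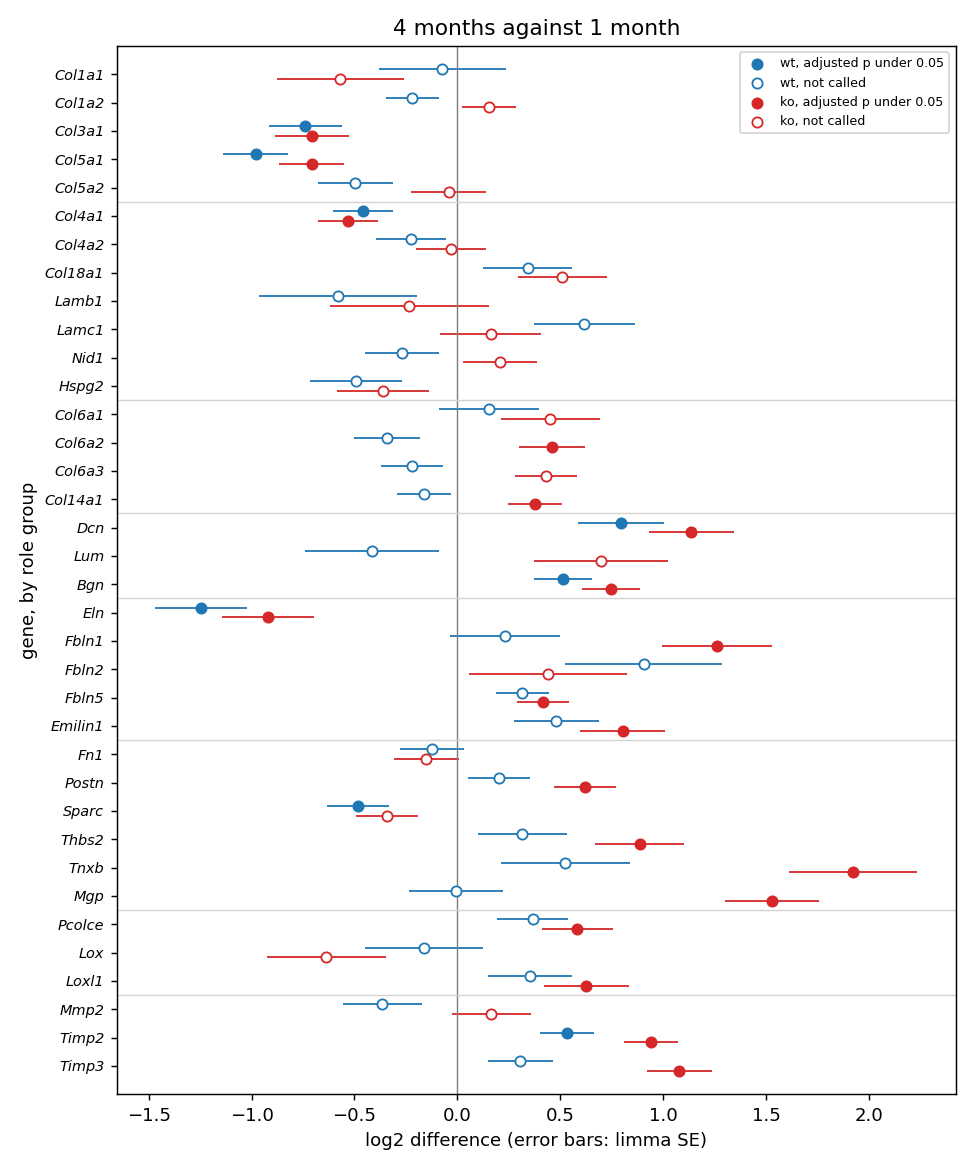
Log2 difference between 4 months and 1 month (x axis, points with limma SE) in wt and in ko for the 36 tested matrix genes (y axis, by role group), with filled points for an adjusted p under 0.05. Col3a1, Col5a1, Col4a1 and Eln are filled to the left in both genotypes, and Tnxb and Mgp in ko lie farthest to the right.

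The mean of the 36 members in each array, as log2 deviation from each gene's mean over the 12 arrays, was -0.19, 0.21 and 0.32 in wt at 1 month and -0.22, -0.28 and -0.26 in ko at 1 month. At 4 months it was 0.10, 0.01 and 0.14 in wt and 0.17, -0.11 and 0.12 in ko. The ko arrays at 1 month were the lowest 3 and lay close together, and wt at 1 month replicate 1 lay nearer to them than to the other wt arrays of its age. The median coefficient of variation of a member's signal was 24.0% in wt at 1 month, 9.04% in ko at 1 month, 12.3% in wt at 4 months and 13.5% in ko at 4 months. In the low array set alone, the wt mouse at 1 month stood at 0.32 and the ko mice between -0.28 and -0.22.

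**Figure D4:**
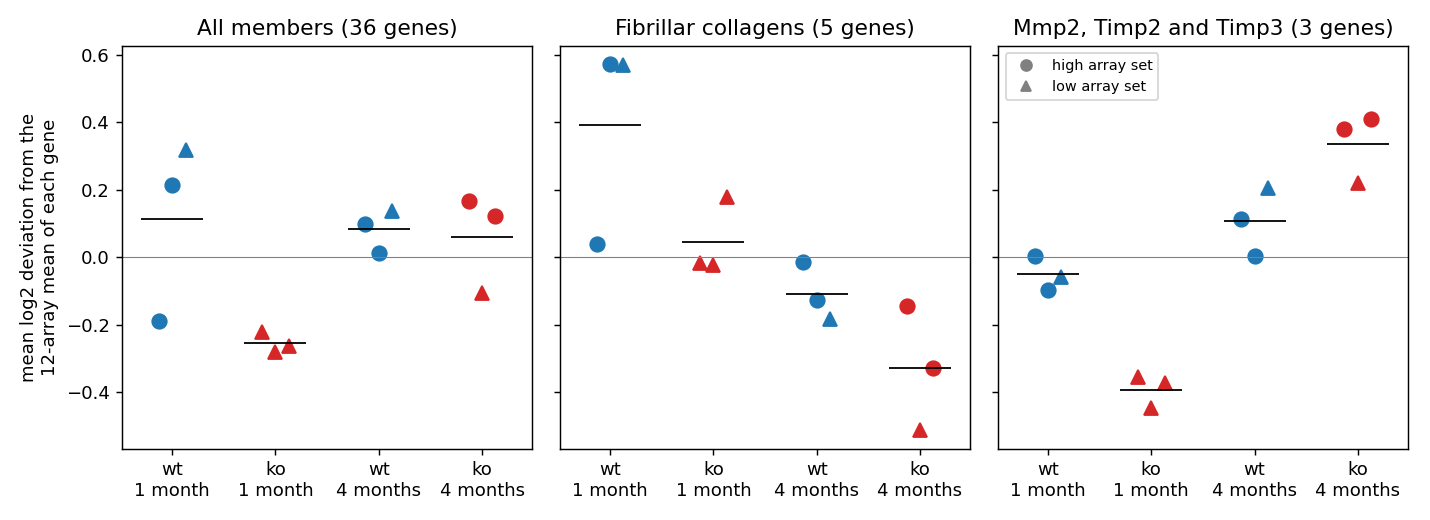
Mean log2 deviation of the matrix genes from their 12-array means (y axis) for each mouse, by group, over all 36 members, the 5 fibrillar collagens and Mmp2, Timp2 and Timp3; circles and triangles are the high and low array sets and bars the group means. The group mean of the fibrillar collagens is lowest in ko at 4 months, whose mice lie at -0.51 to -0.14 and overlap wt at 4 months (-0.18 to -0.01). The protease and inhibitor group is lowest in ko at 1 month, at -0.45 to -0.35.

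Sums of cell type markers differed between the groups in some of these comparisons and overlapped in others. Summed over 13 reticular fibroblast markers, signals were 23289 to 30898 in wt and 17396 to 21174 in ko at 1 month. At 4 months they were 34278 to 40466 in wt and 33011 to 35507 in ko. Cxcl13 and Cxcl12 weigh most in these sums. Their means at 1 month were 9718 and 9279 in wt and 5561 and 7382 in ko. Of these 13 markers 5 rose with age in wt and 7 in ko. Of them 1, Cxcl13, the B cell attracting chemokine, was lower in ko over both ages, at -0.57. Among all genes, 12.6% rose with age in wt and 15.7% in ko, and 2.45% were called lower in ko over both ages. All 11 neutrophil markers were higher in ko at both ages and fell with age. Their sum was 44586 to 54891 in wt and 128987 to 159474 in ko at 1 month. At 4 months it was 9813 to 14828 in wt and 52427 to 69806 in ko. Calls higher in ko took 0.365% of all genes at 1 month and 2.48% at 4 months. With age 11.5% of all genes fell in wt and 10.9% in ko. Smooth muscle markers summed to 8230 to 11561 in wt and 9686 to 10887 in ko at 1 month, and to 14320 to 19043 in wt and 10923 to 14533 in ko at 4 months. Endothelial markers summed to 11171 to 14427 and 11004 to 11139 at 1 month, and to 14159 to 15882 in wt and 17982 to 19075 in ko at 4 months. Adipose markers summed to 6058 to 8200 in wt and 2561 to 6120 in ko at 1 month and to 6930 to 15376 at 4 months. Within this sum, Lpl alone had a mean of 4608 in wt and 2451 in ko at 1 month. Melanocyte markers summed to 7144 and 3816 in wt at 1 month replicates 2 and 3 and to between 378 and 1040 in the other 10 arrays. The part of these cells in the matrix gene differences was not tested.

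Among the fibrillar collagens, Col3a1 encodes type III collagen, the main collagen of reticular fibres. Col3a1 gave scaled signals of 7103, 12019 and 11131 in wt and 6902, 6163 and 6729 in ko at 1 month, and 6254, 5255 and 6190 in wt and 4223, 3372 and 4585 in ko at 4 months. At each age every ko array lay below every wt array, and in each genotype every array at 4 months lay below every array at 1 month. The log2 difference of ko against wt was -0.56 (SE 0.13, adjusted p = 0.0213 in limma) over both ages, -0.57 (SE 0.18) at 1 month and -0.54 (SE 0.18) at 4 months. With age Col3a1 fell by 0.74 on the log2 scale in wt (SE 0.18, adjusted p = 0.0083 in limma) and by 0.71 in ko (SE 0.18, adjusted p = 0.0098 in limma), and both calls held without each array in turn. The genotype call was lost without wt at 1 month replicate 2, ko at 1 month replicate 2 or 3, wt at 4 months replicate 1 or ko at 4 months replicate 2 (adjusted p up to 0.0683).

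Col5a1 and Col5a2 are the chains of type V collagen, which is built into the core of larger fibrils. Col5a1 gave scaled signals of 1053, 941 and 1212 in wt and 1129, 1019 and 1179 in ko at 1 month, and 579, 570.5 and 432 in wt and 715, 689 and 599 in ko at 4 months. The arrays at 4 months lay below those at 1 month in both genotypes, and ko lay above wt at 4 months but not at 1 month. Col5a1 changed with age by -0.98 (SE 0.16, adjusted p = 0.00041 in limma) in wt and -0.71 (SE 0.16, adjusted p = 0.0045 in limma) in ko. Col5a2 gave scaled signals of 1490, 2685 and 1761 in wt and 1058, 1037 and 1017 in ko at 1 month, and 1399, 1262 and 1398 in wt and 1124, 852 and 1064 in ko at 4 months. Every ko array lay below every wt array at each age. Against wt, Col5a2 in ko stood at -0.87 (SE 0.18, adjusted p = 0.0477 in limma) at 1 month, -0.41 (SE 0.18) at 4 months and -0.64 (SE 0.13, adjusted p = 0.0126 in limma) over both.

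Col1a1 and Col1a2 encode the chains of type I collagen, the tensile collagen of capsule and trabeculae. Col1a2 gave scaled signals of 3842, 4855 and 4740 in wt and 3192, 3011 and 3139 in ko at 1 month, and 3712, 3991 and 3776 in wt and 3721, 3105 and 3615 in ko at 4 months. The ko arrays at 1 month lay below all wt arrays of that age, and the genotypes overlapped at 4 months. Over both ages Col1a2 was lower in ko by a log2 difference of -0.33 (SE 0.09, adjusted p = 0.0496 in limma), a call kept only without wt at 1 month replicate 1 (adjusted p up to 0.129 without others) and lost with the array set as a block (adjusted p = 0.0735 in limma). Col1a1 gave scaled signals of 392, 758 and 990.5 in wt and 529.9, 706 and 1123 in ko at 1 month, and 756, 624 and 538 in wt and 715, 389 and 435 in ko at 4 months. All 4 groups overlapped, with log2 differences of 0.16 (SE 0.31) for ko against wt at 1 month and -0.57 (SE 0.31) for age in ko.

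A second probe set of Col1a2 fell with age by 1.03 on the log2 scale in wt (adjusted p = 0.0049 in limma) and by 0.87 in ko (adjusted p = 0.0118 in limma). A second probe set of Col1a1 fell by 0.89 (adjusted p = 0.0344 in limma) and by 1.21 (adjusted p = 0.0059 in limma). For Col3a1 the second probe set fell by 0.95 and 1.05, and for Col5a2 by 0.76 and 0.61, all called. The second probe set of Col5a1 fell by 0.77 in wt (adjusted p = 0.0028 in limma) but stood at 0.0035 in ko (adjusted p = 0.991 in limma), and the remaining probe set stood at 0.41 in wt (adjusted p = 0.602 in limma) and -0.56 in ko (adjusted p = 0.464 in limma). Counted by the probe set of highest mean, 2 of the 5 fibrillar collagen genes fell in wt and 2 in ko. Counted by any of their 2 or 3 probe sets, all 5 fell in each genotype. Of all 12339 genes with a tested probe set, 12.7% did so in wt and 13.2% in ko. These shares cover genes with any number of tested probe sets and are not matched to genes with 2 or 3.

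**Figure D5:**
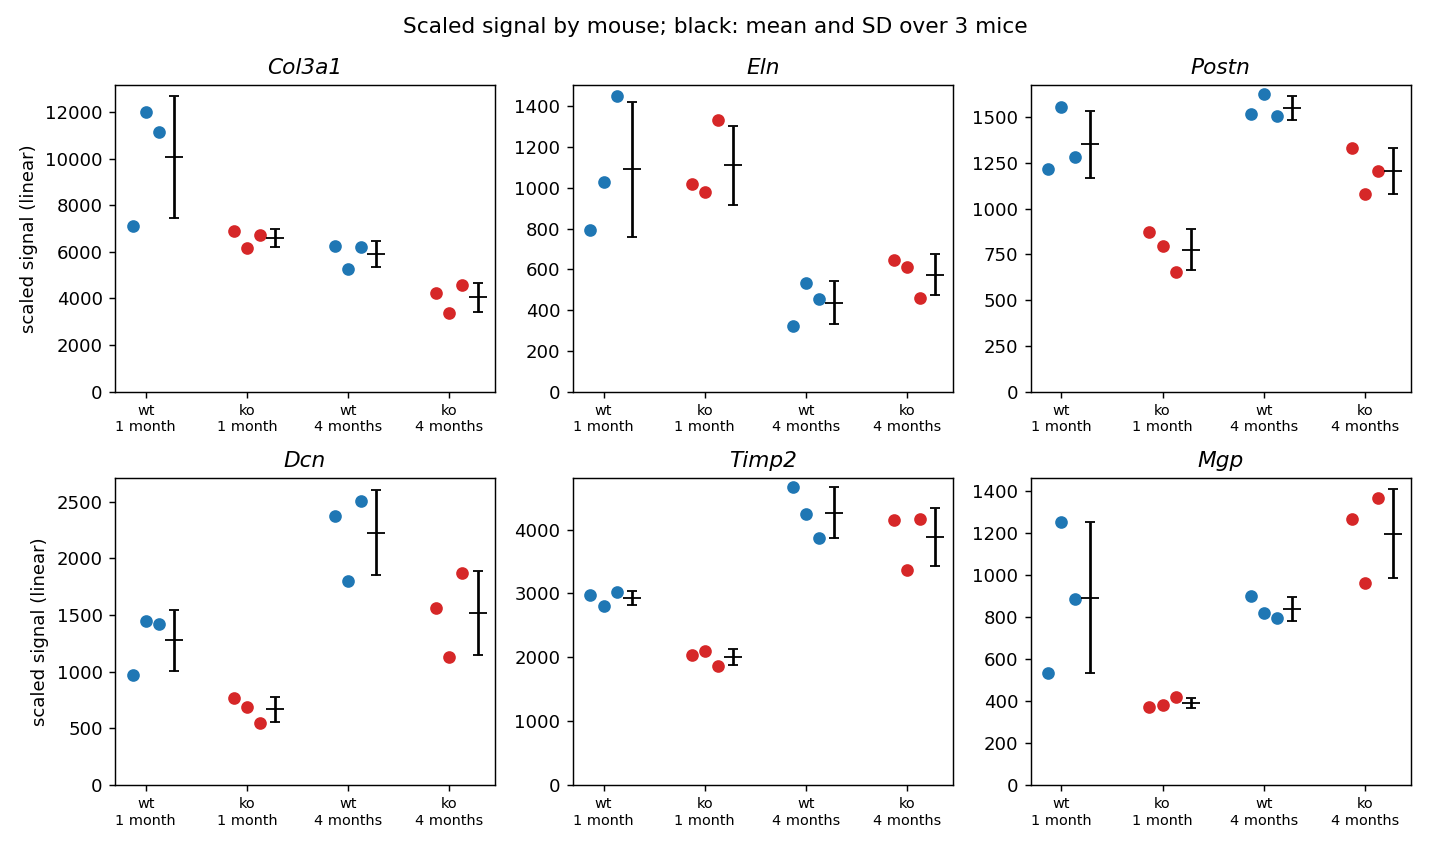
Scaled signal on a linear axis from 0 (y axis) of Col3a1, Eln, Postn, Dcn, Timp2 and Mgp in each mouse of the 4 groups, with the mean and SD over 3 mice in black. Col3a1 and Eln are lower at 4 months in both genotypes, Dcn and Timp2 are higher, and Mgp in ko goes from 373 to 418 at 1 month to 960 to 1366 at 4 months.

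Of the 7 tested basement membrane genes, 0 were called between the genotypes by limma, with an unadjusted p under 0.05 in 1 at 1 month and in 1 at 4 months. Col4a1 and Col4a2 encode the chains of the network-forming type IV collagen. Col4a1 gave scaled signals of 3662, 4258 and 3329 in wt and 2920, 2644 and 3596 in ko at 1 month, and 2972, 2599 and 2564 in wt and 2066, 1972 and 2226 in ko at 4 months. The 4-month arrays lay below the 1-month arrays in both genotypes, and ko lay below wt at 4 months. With age Col4a1 changed by -0.46 (SE 0.14, adjusted p = 0.0329 in limma) in wt and -0.53 (SE 0.14, adjusted p = 0.0146 in limma) in ko. The wt call was lost without wt at 1 month replicate 1 or 2 or wt at 4 months replicate 2 or 3 (adjusted p up to 0.116), and the ko call without ko at 1 month replicate 3 or ko at 4 months replicate 1 (up to 0.0794). A second Col4a1 probe set stood at 0.22 in ko with age (adjusted p = 0.433 in limma), the opposite sign. Col4a2 gave scaled signals of 1417, 1651 and 2230 in wt and 1649, 1612 and 1996 in ko at 1 month, and 1442, 1557 and 1441 in wt and 1821, 1416 and 1920 in ko at 4 months. The groups of Col4a2 overlapped throughout, and its largest log2 difference was -0.23 (SE 0.17), for age in wt.

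Nidogen-1, which links laminin to type IV collagen, is encoded by Nid1. Nid1 gave scaled signals of 2551, 3816 and 3372 in wt and 2263, 2347 and 2108 in ko at 1 month, and 3495, 2179 and 2454 in wt and 2843, 2264 and 2685 in ko at 4 months. The ko arrays at 1 month lay below all wt arrays of that age, with a log2 difference of -0.51 (SE 0.18, adjusted p = 0.197 in limma). Another Nid1 probe set rose with age in ko by 0.81 (adjusted p = 0.0386 in limma), while the one listed stood at 0.21 (SE 0.18). Endostatin's parent collagen Col18a1 gave -0.43 (SE 0.22) for ko against wt at 1 month, and lay higher at 4 months without overlap in ko, at 0.51 (SE 0.22, adjusted p = 0.102 in limma). The laminin chain genes Lamb1 and Lamc1 and the perlecan gene Hspg2 gave between 49.4 and 793 in single arrays, and their groups overlapped between the genotypes and between the ages.

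Collagen VI forms beaded filaments around cells, and collagen XIV binds to the surface of type I fibrils. In ko spleens every array at 4 months lay above every array at 1 month for all 4 genes of this group, and in wt the groups overlapped for all 4. Col6a2 gave scaled signals of 782, 898 and 953 in wt and 608, 576 and 459 in ko at 1 month, and 609.8, 648 and 804 in wt and 752, 707 and 831 in ko at 4 months. Col6a2 stood at -0.65 (SE 0.16, adjusted p = 0.0834 in limma) for ko against wt at 1 month, where the groups did not overlap, and rose in ko by 0.46 (SE 0.16, adjusted p = 0.0479 in limma). A second Col6a2 probe set stood at 0.22 with age in ko and was not called. Col14a1 gave scaled signals of 3418, 4500 and 4103 in wt and 3149, 2991 and 2670 in ko at 1 month, and 3596, 3439 and 3647 in wt and 3677, 3751 and 4038 in ko at 4 months. Col14a1 lay lower in ko at 1 month, at -0.44 (SE 0.13, adjusted p = 0.137 in limma), and slightly higher at 4 months, at 0.10 (SE 0.13), both without overlap. Its rise in ko was 0.38 (SE 0.13, adjusted p = 0.0478 in limma).

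Col6a3 gave scaled signals of 886, 1260 and 1067 in wt and 696, 660.1 and 671 in ko at 1 month, and 986, 817 and 922 in wt and 1004, 852 and 917 in ko at 4 months. The 3 ko arrays at 1 month lay below the other 9 arrays, at -0.63 (SE 0.15, adjusted p = 0.0817 in limma) against wt. Its age difference in ko missed the threshold, at 0.43 (SE 0.15, adjusted p = 0.0503 in limma). Col6a1 overlapped between the genotypes at both ages, and stood at 0.45 (SE 0.24) with age in ko. The calls of Col6a2 and Col14a1 in ko were near the threshold. Col6a2 lost its call without 8 of the 12 arrays (all but wt at 1 month replicates 1 and 3 and wt at 4 months replicates 1 and 3), with an adjusted p of up to 0.193. Col14a1 lost its call without 7, namely the 6 ko arrays and wt at 4 months replicate 2 (up to 0.167). With the array set as a block they stood at adjusted p values of 0.0514 and 0.0654.

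Decorin, lumican and biglycan are small leucine-rich proteoglycans that bind collagen fibrils, and decorin and biglycan also bind TGF-beta. Dcn gave scaled signals of 966, 1444 and 1420 in wt and 767, 686 and 544 in ko at 1 month, and 2378, 1799 and 2507 in wt and 1565, 1128 and 1867 in ko at 4 months. Every ko array at 1 month lay below every wt array, the genotypes overlapped at 4 months, and in both genotypes every 4-month array lay above every 1-month array. Dcn was lower in ko over both ages, at -0.73 (SE 0.15, adjusted p = 0.0126 in limma), a call that held without each array in turn. It rose with age by 0.80 (SE 0.21, adjusted p = 0.0126 in limma) in wt and 1.14 (SE 0.21, adjusted p = 0.0012 in limma) in ko. The wt rise lost its call without wt at 1 month replicate 1 (adjusted p = 0.0734 in limma).

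Bgn gave scaled signals of 4283, 5711 and 6212 in wt and 4396, 4298 and 4789 in ko at 1 month, and 8007, 7312 and 7587 in wt and 7560, 7034 and 8126 in ko at 4 months. The arrays at 4 months all lay above those at 1 month in both genotypes, and the genotypes overlapped at each age. Bgn rose by 0.51 (SE 0.14, adjusted p = 0.0172 in limma) in wt and 0.75 (SE 0.14, adjusted p = 0.0016 in limma) in ko. The name of this probe set ends in x_at, which marks probes that can match other transcripts, but the other 2 probe sets of Bgn were called higher with age in both genotypes as well, at 0.48 and 0.42 in wt and 0.94 and 0.82 in ko. The wt call was lost without wt at 1 month replicate 1 or wt at 4 months replicate 1 (adjusted p up to 0.0970). Lum gave scaled signals of 127, 162 and 207 in wt and 91.3, 62.4 and 48.2 in ko at 1 month, and 112, 83.9 and 155 in wt and 185, 66.2 and 155 in ko at 4 months. The ko arrays at 1 month lay under 100 and below all wt arrays of that age, at -0.99 (SE 0.32, adjusted p = 0.168 in limma). Dcn and Lum, neighbours in the genome, were both lower in ko without overlap at 1 month, and for both the genotypes overlapped at 4 months. In all, 9 of the 36 members had this pattern. At 4 months ko against wt stood at -0.56 for Dcn and 0.12 for Lum, with opposite signs.

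Elastin, the core of elastic fibres in the capsule, trabeculae and arteries, is encoded by Eln. Eln gave scaled signals of 795, 1028 and 1449 in wt and 1019, 982 and 1334 in ko at 1 month, and 324, 533 and 453 in wt and 647, 612 and 460.4 in ko at 4 months. In both genotypes the 3 arrays at 4 months lay below the 3 at 1 month, and the genotypes overlapped at each age. Eln fell with age by 1.25 on the log2 scale in wt (SE 0.22, adjusted p = 0.0010 in limma) and by 0.92 in ko (SE 0.22, adjusted p = 0.0077 in limma). Both calls held without each array in turn, while the call in ko was lost with the array set as a block, at -0.71 (SE 0.24, adjusted p = 0.0519 in limma). A second probe set of Eln fell by 1.83 in wt (adjusted p = 0.0337 in limma) and stood at -1.30 in ko (adjusted p = 0.121 in limma).

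Of the 4 fibulin and emilin genes, whose proteins sit on elastic fibres, 3 rose with age in ko. Fbln1 encodes fibulin-1, found on elastic fibres and basement membranes. Fbln1 gave scaled signals of 146, 114 and 243 in wt and 77.5, 98.2 and 109 in ko at 1 month, and 151, 244 and 196 in wt and 348, 211 and 268 in ko at 4 months. In ko the arrays at 4 months lay above those at 1 month, 2 of which were under 100, and in wt the ages overlapped. Fbln1 rose in ko by 1.26 (SE 0.27, adjusted p = 0.0034 in limma) and stood at 0.23 (SE 0.27) in wt. A second Fbln1 probe set stood at 0.59 with age in ko and was not called. Emilin1 gave scaled signals of 511, 638 and 917 in wt and 735, 828 and 825 in ko at 1 month, and 796, 1057 and 1009 in wt and 1569, 1075 and 1665 in ko at 4 months. Emilin1, an elastin microfibril interface protein, lay highest in ko at 4 months, where every ko array lay above every wt array. Its rise in ko was 0.80 (SE 0.21, adjusted p = 0.0104 in limma), lost without ko at 4 months replicate 1 or 3 (adjusted p up to 0.0597). A second Emilin1 probe set stood at 0.66 with age in ko and was not called.

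Fibulin-5, which is needed to assemble elastic fibres, is encoded by Fbln5. Fbln5 gave scaled signals of 1575, 1867 and 1847 in wt and 1594, 1438 and 1468 in ko at 1 month, and 2217, 2209 and 2163 in wt and 2166, 1842 and 2037 in ko at 4 months. In both genotypes every array at 4 months lay above every array at 1 month, and the genotypes overlapped at each age. Fbln5 rose in ko by 0.42 (SE 0.13, adjusted p = 0.0271 in limma) and stood at 0.32 (SE 0.13, adjusted p = 0.0896 in limma) in wt. The ko call was lost without ko at 1 month replicate 2 or 3 or ko at 4 months replicate 1 or 3 (adjusted p up to 0.117), and also under the array set block (adjusted p = 0.0711 in limma). Fbln2, fibulin-2, was low in wt at 1 month replicate 1, at 22.8, and between 127 and 261 in the other 11 arrays. It was not called in any comparison.

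Fibronectin, the adhesive protein that integrins use to lay down collagen, was the 1 member called higher in ko over both ages. Fn1 gave scaled signals of 2034, 2045 and 2517 in wt and 3211, 2755 and 3337 in ko at 1 month, and 2313, 1946 and 1794 in wt and 3075, 2267 and 3083 in ko at 4 months. At 1 month every ko array lay above every wt array, and at 4 months only ko replicate 2 fell within the wt range. Fn1 was higher in ko over both ages by 0.48 (SE 0.11, adjusted p = 0.0244 in limma), from 0.49 (SE 0.16) among 1-month mice and 0.46 (SE 0.16) among 4-month mice. The call was lost without wt at 1 month replicate 2, ko at 1 month replicate 3, wt at 4 months replicate 3 or ko at 4 months replicate 1 or 3 (adjusted p up to 0.0739). A second Fn1 probe set stood at 0.28 (adjusted p = 0.619 in limma).

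Postn gave scaled signals of 1215, 1558 and 1283 in wt and 875, 796 and 656 in ko at 1 month, and 1520, 1628 and 1508 in wt and 1333, 1081 and 1205 in ko at 4 months. Periostin transcript was lower in every ko array than in every wt array at each age, and in ko every 4-month array lay above every 1-month array. Against wt, ko stood at -0.78 (SE 0.15, adjusted p = 0.0317 in limma) at 1 month, -0.36 (SE 0.15, adjusted p = 0.25 in limma) at 4 months and -0.57 (SE 0.11, adjusted p = 0.0083 in limma) over both. With age Postn rose in ko by 0.62 (SE 0.15, adjusted p = 0.0075 in limma) and stood at 0.20 (SE 0.15) in wt. Sparc, osteonectin, binds collagen and is needed for its assembly. Sparc gave scaled signals of 5535, 7379 and 8742 in wt and 5935, 5902 and 5649 in ko at 1 month, and 4675, 5671 and 4905 in wt and 4734, 4457 and 4581 in ko at 4 months. In ko every 4-month array lay below every 1-month array, and in wt 1 array of each age overlapped. Sparc fell in wt by 0.48 on the log2 scale (SE 0.15, adjusted p = 0.0322 in limma) and stood at -0.34 (SE 0.15, adjusted p = 0.117 in limma) in ko. The wt call was lost without wt at 1 month replicate 2 or 3 or wt at 4 months replicate 1 or 3 (adjusted p up to 0.110), and a second Sparc probe set fell in both wt and ko, by 0.45 and 0.59.

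Thrombospondin-2 restrains vessel growth and collagen fibril width. Thbs2 gave scaled signals of 283, 550.5 and 473 in wt and 254, 202 and 190.1 in ko at 1 month, and 436, 598 and 573 in wt and 455, 419 and 395 in ko at 4 months. The 3 ko arrays at 1 month lay below the other 9 arrays. Thbs2 was lower in ko over both ages, at -0.59 (SE 0.15, adjusted p = 0.0364 in limma), and rose in ko with age by 0.89 (SE 0.22, adjusted p = 0.0078 in limma). The genotype call was lost without 8 of the 12 arrays, all but wt at 1 month replicates 1 and 3, ko at 1 month replicate 1 and wt at 4 months replicate 1 (adjusted p up to 0.103). With the second Thbs2 probe set it stood at -0.11 (adjusted p = 0.782 in limma). Of the 3 tested Thbs2 probe sets, 1 was called higher with age in ko, and the lowest stood at -0.04. With the second probe set the rise in ko was not called (adjusted p = 0.138 in limma).

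Tnxb encodes tenascin-X, which ties collagen fibrils together. Tnxb gave scaled signals of 462, 799 and 1361 in wt and 264, 537 and 497 in ko at 1 month, and 1078, 1478 and 986 in wt and 2086, 1386 and 1590 in ko at 4 months. In ko every array at 4 months lay above every array at 1 month, and wt ranged widely at 1 month, with 462 in replicate 1 and 1361 in replicate 3. Tnxb had the largest rise of the 36 members in ko, 1.92 (SE 0.31, adjusted p = 0.00056 in limma), which is 3.79-fold, and stood at 0.53 (SE 0.31) in wt. Matrix Gla protein, an inhibitor of calcification, is encoded by Mgp. Mgp gave scaled signals of 533, 1254 and 886 in wt and 373, 382 and 418 in ko at 1 month, and 902, 819 and 796 in wt and 1268, 959.8 and 1366 in ko at 4 months. Every ko array lay below wt at 1 month and above wt at 4 months. Mgp rose in ko by 1.53 (SE 0.23, adjusted p = 0.00032 in limma), or 2.88-fold, while wt stood at -0.01 (SE 0.23). Against wt, ko stood at -1.05 (SE 0.23, adjusted p = 0.0559 in limma) at 1 month and 0.48 (SE 0.23, adjusted p = 0.315 in limma) at 4 months. The difference between these 2 was 1.53 (SE 0.32, adjusted p = 0.142 in limma), and without wt at 1 month replicate 1, the lowest wt array, it was 1.85 (SE 0.25, adjusted p = 0.0112 in limma).

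Pcolce encodes a protein that speeds the removal of the procollagen end peptide, and Lox and Loxl1 encode enzymes that cross-link collagen and elastin. Lox gave scaled signals of 287, 328 and 280.1 in wt and 227, 155 and 121 in ko at 1 month, and 338, 174 and 304 in wt and 148, 56.7 and 91.7 in ko at 4 months. Every ko array lay below every wt array at each age, and at 4 months 2 of the ko arrays were under 100. Lox was lower in ko at -1.23 (SE 0.29, adjusted p = 0.0338 in limma) at 4 months and -0.99 (SE 0.20, adjusted p = 0.0132 in limma) over both ages, with -0.76 (SE 0.29, adjusted p = 0.224 in limma) at 1 month. The call at 4 months was lost without ko at 1 month replicate 2, wt at 4 months replicate 1 or 3, or ko at 4 months replicate 2 or 3 (adjusted p up to 0.137). The call over both ages held without each array, and a second Lox probe set stood at -0.88 (adjusted p = 0.0799 in limma).

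Pcolce gave scaled signals of 1453, 2539 and 2177 in wt and 1800, 1668 and 1545 in ko at 1 month, and 2665, 2499 and 2617 in wt and 2549, 2248 and 2771 in ko at 4 months. Loxl1 gave scaled signals of 475, 715 and 886 in wt and 622, 562 and 551 in ko at 1 month, and 980.2, 823 and 804 in wt and 1046, 704 and 1021 in ko at 4 months. For both genes wt at 1 month replicate 1 was the lowest of the 12 arrays, and every ko array at 4 months lay above every ko array at 1 month. Pcolce rose in ko by 0.58 (SE 0.17, adjusted p = 0.0224 in limma) and Loxl1 by 0.63 (SE 0.20, adjusted p = 0.0368 in limma), with 0.37 (SE 0.17) and 0.35 (SE 0.20) in wt. Pcolce lost its call without ko at 1 month replicate 2 or 3 or ko at 4 months replicate 1 or 3 (adjusted p up to 0.0971), and Loxl1 without any ko array but ko at 4 months replicate 2 (up to 0.148). With the array set as a block they stood at adjusted p values of 0.0554 and 0.0955. A second Pcolce probe set stood at 0.38 with age in ko and was not called.

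Timp2 and Timp3 encode tissue inhibitors of metalloproteinases, Timp3 being the one held in the matrix, and Mmp2 encodes gelatinase A. Timp2 gave scaled signals of 2970, 2804 and 3016 in wt and 2042, 2099 and 1866 in ko at 1 month, and 4668, 4253 and 3871 in wt and 4145, 3367 and 4160 in ko at 4 months. The 3 ko arrays at 1 month were the lowest of all, the 3 wt arrays of that age came next without overlap, and the 6 arrays at 4 months were the highest. Timp2 rose with age by 0.53 (SE 0.13, adjusted p = 0.0089 in limma) in wt and 0.94 (SE 0.13, adjusted p = 0.0002 in limma) in ko, and both calls held without each array. All 5 tested probe sets of Timp2 were called higher at 4 months in both genotypes. Over both ages Timp2 was lower in ko at -0.34 (SE 0.09, adjusted p = 0.0442 in limma), a call kept only without wt at 1 month replicate 3 or wt at 4 months replicate 3 (adjusted p up to 0.120) and lost with the array set as a block (adjusted p = 0.0823 in limma).

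Timp3 gave scaled signals of 1347, 1686 and 1285 in wt and 1262, 1031 and 1505 in ko at 1 month, and 1803, 1697 and 1823 in wt and 2975, 2375 and 2715 in ko at 4 months. The ko arrays at 4 months lay above the other 9 arrays. Timp3 rose in ko by 1.08 (SE 0.16, adjusted p = 0.00028 in limma), in all 4 of its probe sets, and stood at 0.31 (SE 0.16, adjusted p = 0.185 in limma) in wt. In wt too every array at 4 months lay above every array at 1 month. There the 4 probe sets stood at 0.19 to 0.49, and 1 of them was called higher. Against wt at 4 months ko stood at 0.59 (SE 0.16, adjusted p = 0.0675 in limma), and a second Timp3 probe set was called there, at 0.65 (adjusted p = 0.0349 in limma). Mmp2 gave scaled signals of 622, 418 and 559 in wt and 446, 435 and 390.0 in ko at 1 month, and 362, 332 and 535 in wt and 438, 485 and 514 in ko at 4 months. Groups of Mmp2 overlapped in every comparison, and its log2 differences lay between -0.36 and 0.53.

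Of the 23 members with several tested probe sets, all probe sets of a gene shared their sign in 18 for the genotype difference at 1 month, 13 at 4 months, 19 for age in wt and 17 for age in ko. In 0 of the 23 were 2 probe sets of a gene called in opposite directions, while some probe sets of a gene were called and others not in 14 for age in ko, 7 for age in wt, 5 over both ages, 2 at 4 months and 1 at 1 month. Of all probe sets tested, 2.3% were called between the genotypes at 4 months, 21.4% for age in wt and 22.9% for age in ko.

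Other matrix genes were counted from lists of the same pathways, to be read against the 12.6% of all genes that rose with age in wt and the 15.7% in ko, and the 11.5% and 10.9% that fell. Among 30 other glycoproteins and proteoglycans, 7 rose and 1 fell in wt and 13 rose and 1 fell in ko, with Prelp at 1.20, Ltbp4 at 1.46 and Ltbp2 at 0.98 on the log2 scale in ko. At 4 months 3 were higher in ko, namely Thbs1 (1.33), a platelet and matrix thrombospondin, Emilin2 (1.13) and Mmrn1 (0.80), a platelet and endothelial multimerin. Of 8 megakaryocyte and platelet markers 7 were higher in ko at 4 months as well, their sum being 14475 to 23909 in wt and 33229 to 45610.4 in ko, and their part in the result was not tested. Calls higher in ko at 4 months took 2.48% of all genes. Dpt, dermatopontin, a decorin-binding matrix protein, was lower in ko over both ages, at -0.82 (SE 0.14, adjusted p = 0.0041 in limma). Of 14 genes for collagen synthesis in the endoplasmic reticulum, 3 rose in wt and 4 in ko, among them Mia3, a collagen export protein, at 0.76 and 0.81. Plod2, a collagen lysyl hydroxylase, was lower in ko over both ages, at -0.64 (SE 0.14, adjusted p = 0.0184 in limma). Of 15 TGF-beta signalling genes, 6 rose in wt and 7 in ko, with the TGF-beta-induced genes Tgfbi at 0.75 and 1.26 and Ccn2 at 0.73 and 1.25. Of 19 matrix receptors, 3 rose in wt and 8 in ko. Over both ages 3 were lower in ko: the integrin gene Itga8 at -0.56 and the syndecan genes Sdc4 at -0.66 and Sdc2 at -0.48. Calls lower in ko over both ages took 2.45% of all genes.

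The neutrophil proteases Mmp9 and Mmp8 were the 2 of 14 other proteases and inhibitors higher in ko at 1 month, at 1.45 and 1.84. Calls higher in ko at 1 month took 0.365% of all genes. Of 14 other collagens 1 was called in any comparison, Col23a1, a transmembrane collagen, which rose in ko with age by 0.79.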

How the data were processed

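Affymetrix arrays held spleen RNA of 12 mice, 1 mouse an array. The deposited values are signal intensities on a linear scale, made with MAS5 per the submitters' processing notes; MAS5 subtracts a local background and combines the perfect and mismatch probes of a set, which leaves low signals noisy. Settings beyond this are not given in the sources used here. Arrays were brought to a common trimmed mean of 500 (2% trimmed at each end), 64 control probe sets were left out, and log2(signal + 32) was fitted in limma 3.58.1 (R 4.3.3) with the 4 groups, empirical Bayes moderation with an intensity trend and no block. Probe sets under 100 in more than 9 arrays were not tested. The 6 contrasts were ko against wt at each age and over both, their difference, and 4 months against 1 month in each genotype. P-values were 2-sided and adjusted by Benjamini-Hochberg over 27041 probe sets, with 0.05 as threshold; the fit was tested on simulated data.

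The probe annotation gave 34958 of 45101 probe sets 1 symbol, 932 several and 9211 none; probe sets with several were not used. Named genes were all members, up to 3 called genes of each other list in a comparison by smallest p, and the markers that touch a result. Members and lists were chosen with earlier results of these data known. Each mouse is 1 replicate as labelled. Alternatives were other scalings, offsets, filters, probe set rules, blocks by replicate number or array set, subsets of arrays and each array left out.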

Additional observations from a re-analysis of the deposited data

How the results depend on the processing

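Counts of called members are given in the order of the comparisons, against 2 (ko against wt at 1 month), 1 (at 4 months), 9 (both ages), 8 (age in wt) and 19 (age in ko). At 1 month the count was 1 with quantile normalization, an offset of 1 or of 8, no filter or the second probe set of each gene, and 0 with median centring, no intensity trend, the array set as a block, the low array set or only the arrays compared. At 4 months it was 2 with quantile normalization or any probe set of a gene, and 0 with no filter, no intensity trend, either array set or only the arrays compared. Over both ages it was 5 with median centring, 4 with no trend, 2 in the low set and 3 with the second probe set. For age it was 4 (low set) and 5 (only the arrays compared) in wt, and 12 (median centring) and 7 (low set) in ko. The low set holds 1 wt array at each age, 3 ko arrays at 1 month and 1 at 4 months, and the high set 2 against 2 at 4 months; an arm of 1 array is assumed to vary like the others, and these counts say nothing about stability. For the other settings the cause was not tested. The members' median moved at 1 month from -0.36 to -0.21 with median centring and -0.58 in the low set, at 4 months to -0.19 and over both ages to -0.39 in the low set, for age in ko to 0.26 in the low set and for age in wt to 0.060 in the high set. The second probe set turned the sign of the age difference in ko for Col4a1 (0.22) and Col5a1 (0.0035). Leaving out 1 array at a time gave counts of 0 to 6 at 1 month, 0 to 1 at 4 months, 4 to 10 over both ages, 0 to 1 for the difference between ages, 6 to 11 for age in wt and 12 to 21 for age in ko. The medians then ranged from -0.54 to -0.31, -0.06 to 0.04, -0.28 to -0.15, 0.19 to 0.48, -0.22 to 0.0028 and 0.36 to 0.48.

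The groups share replicate numbers, but same-numbered arrays did not deviate together (r from -0.20 to 0.21), so the numbers were not taken as pairs. With the replicate block 1 member was called at 1 month, 1 at 4 months, 7 over both ages, 0 for the difference between ages, 8 for age in wt and 17 for age in ko. Col5a2 at 1 month, Col1a2 and Timp2 over both ages and Col6a2 and Col14a1 for age in ko then missed the threshold. With 3 mice a group and low signals near background, small differences could not be resolved.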

Other observations

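Markers of blood cells in the same spleens also differed between the groups. Signals of erythroid markers summed to 110898 to 143947 in wt and 115029 to 131232 in ko at 1 month, and to 36455 to 63874 in wt and 81457 to 93305 in ko at 4 months. Of the 10 erythroid markers 7 were higher in ko at 4 months, 10 fell with age in wt and 5 fell in ko. Among all genes, 2.48% were called higher in ko at 4 months, and 11.5% fell with age in wt and 10.9% in ko. B cell markers summed to 35326 to 39996 in wt and 26637 to 29965 in ko at 1 month, and to 56922 to 69459 and 48332 to 62086 at 4 months. T cell markers summed to 8683 to 9692 and 6270 to 7629 at 1 month, and to 12301 to 14049 and 10441 to 12775 at 4 months. Macrophage markers summed to 42984 to 50836 and 32131 to 39052 at 1 month, and to 65932 to 70680 and 72557 to 76850 at 4 months. Megakaryocyte and platelet markers summed to 28888 to 36910 in wt and 31707 to 33058 in ko at 1 month, and 6 of the 8 fell with age in wt. Markers of the mesothelium of the capsule summed to 1249 to 1811 in wt and 1095 to 1218 in ko at 1 month, and to 1314 to 2054 and 1416 to 1941 at 4 months. At 1 month the B cell, T cell, macrophage, reticular fibroblast, endothelial and mesothelial sums of every ko array lay below those of every wt array. Of all single genes, 11.7% lay below in this way. The endothelial gap was narrow, 11139 against 11171, and not every marker went with its sum. Means were higher in ko for the endothelial markers Vwf, Eng and Egfl7 and the mesothelial markers Wt1 and Krt18. The same held for the fibroblast marker Grem1 and the macrophage markers C1qa, C1qb and Hmox1.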
